A study of Homo sapiens with 24 samples.

Results

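Chaperones are proteins that help others to fold, keep unfolded ones from aggregating, or hand them to degradation. The members described here are all annotated human gene symbols of the families HSPA (the HSP70 chaperones), HSPB (small heat shock proteins), HSPD1 and HSPE1 (the mitochondrial chaperonin), HSPH1, HSP90, DNAJA, DNAJB and DNAJC (J proteins), CCT2 to CCT8 with TCP1 (subunits of the cytosolic chaperonin), and BAG1 to BAG5. Antisense genes and symbols that end in P and a number, the usual form of a pseudogene's name, were left out. HSPA7 and DNAJB3, which RefSeq classes as transcribed pseudogenes, have no such ending and stayed in. This gave 87 symbols, of which 75 had a probe set annotated with 1 symbol, among 22109 such genes on the array. Of the 75, 67 passed the filter on low values and were tested, among 17338 genes tested in all.

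HSP70 chaperones bind and release client proteins in a cycle of ATP hydrolysis. J proteins bring clients and start hydrolysis, and nucleotide exchange factors such as the BAG proteins and the HSP110 chaperones reopen the cycle. Heat, arsenite and other agents that damage proteins activate the transcription factor HSF1, which binds heat shock elements in the promoters of many chaperone genes. HSPA5 and its J proteins serve the endoplasmic reticulum instead, and HSPA9 the mitochondrion.

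The transcripts were measured on 24 Affymetrix arrays of HAP1 cells, a near-haploid human line derived from the chronic myeloid leukaemia line KBM-7. There were 6 lines: S51A, which carries a change at the serine of eIF2-alpha that stress kinases phosphorylate, ΔHRI, ΔGCN2, ΔPKR and ΔPERK, each named for the loss of one of those kinases, and the parental line, PAR. All came from a commercial supplier, and whether each is a single clone is not given in the sources used here. Cells received SA100 for 2 h (6 arrays, 1 per line), lomustine, an alkylating and crosslinking drug, at 200 µM for 2 h (9 arrays), or no drug (9 arrays). PAR, S51A and ΔHRI had arrays A and B with lomustine and without drug, and every other group had 1 array. The agent field of the SA100 arrays names lomustine, but their titles and the treatment text point to sodium arsenite at 100 µM. They were grouped by title and are read as arsenite. Nothing says that A and B came from separate cultures, so the spread between them may be technical. The p-values for arms and for lines rest on that spread and on how responses varied between lines. Those for comparisons of responses rest on the spread between A and B. Below, the kinase lines are written HRI, GCN2, PKR and PERK.

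Values are log2 units, and a difference of 1 is a 2-fold one. The median of all values, 2.42, stands here as the level under which a signal is not told from background. Arrays give no read depth, and their number limits the precision. The array S51A lomustine B stood apart: in 8.72% of its probe sets the value was over 1 log2 unit away from the other arrays' median, against 3.38% for the next, PAR lomustine A. The kinase genes gave a weak check of the line labels. EIF2AK3 read 4.31 with SA100, 3.54 with lomustine and 3.33 without drug in the PERK line, against 3.33 to 4.84 on the arrays of the other lines. EIF2AK1 in the HRI line, at 7.49 to 7.84, lay within the 6.92 to 7.96 of the others. EIF2AK4 in the GCN2 line (5.76 to 5.89) and EIF2AK2 in the PKR line (6.74 to 7.79) also lay within the ranges of the others, 5.63 to 6.48 and 6.35 to 7.94. A small deletion or a base change need not alter such a signal. The mean over 7 blood markers was 2.38 to 2.54 on SA100 arrays, 2.31 to 2.50 with lomustine and 2.31 to 2.61 without drug. Of these 7, 3 had a mean below the background level. PTPRC stayed between 1.56 and 2.08, below that level on all arrays, while HBE1 read 2.63 to 3.79, above it on all. In RNA from bulk cells, the share of cells that respond and the level per cell cannot be told apart.

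Not all families could be read in full. HSPA1A, HSPA1B, HSPA8, HSPD1, HSPE1, HSP90B1, HSPB2, DNAJB3, DNAJB6, DNAJC9, DNAJC25 and TCP1 had no probe set with a single symbol and have no value here. These include the main inducible and constitutive cytosolic HSP70 genes and the whole mitochondrial chaperonin. DNAJA4, DNAJB7, DNAJB8, DNAJB13, DNAJC5B, DNAJC12, HSPB3 and HSPB8 had values, but fewer than 2 arrays reached 2.42, and they were not tested.

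With SA100, a small group of HSP70 chaperones, J proteins, exchange factors and a small heat shock protein rose, and no member was called lower. Differences below 0 that did not pass were found in 20 of the 67 members. Over all 6 lines, limma called 13 of the 67 members higher than without drug and 0 lower (adjusted p under 0.05). Over all genes tested, 2.11% were called higher and 0.952% lower. Among members, 20 had an unadjusted p under 0.05. The share of all genes at that threshold is not given here, so nothing is read from this count. The median difference was 0.12 over the 67 members and 0.04 over all genes, so most members moved little. The calls spread over 7 families. They were 4 of 12 genes with an HSPA symbol, 1 of 2 HSP90 genes and 1 of 4 small heat shock proteins. Also called were 1 of 3 J proteins of class A, 3 of 8 of class B, 2 of 5 BAG genes and HSPH1. Families follow the gene symbols. HSPA4L, an HSP110-like exchange factor, thus counts among the 4 with an HSPA symbol, and HSPH1 is alone under HSP110. None of the 24 tested J proteins of class C and none of the 8 CCT subunits was called.

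**Figure D1:**
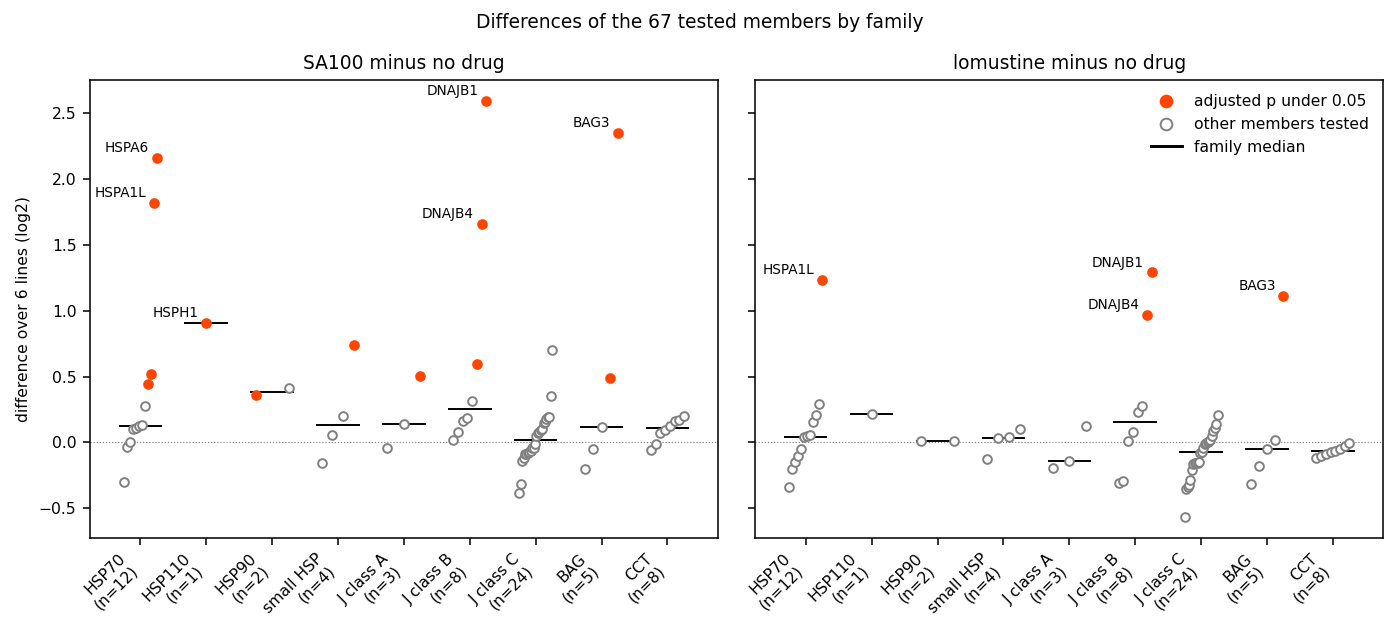
Difference from no drug (log2 units, vertical axis) of each tested member, by family, for SA100 on the left and lomustine on the right. Filled points had an adjusted p under 0.05 and bars mark the family medians. With SA100 the 13 filled points lie at 0.36 or above, while the CCT points stay between -0.06 and 0.20.

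DNAJB1, the main stress-inducible J protein partner of cytosolic HSP70, led the members. It read between 10.05 and 10.53 on the 6 SA100 arrays (median 10.24), against 7.55 to 7.82 on the 9 arrays without drug (median 7.69). The groups were far apart, and the untreated arrays lay close together (SD 0.0739, n = 9). The difference was 2.59 (SE 0.114, limma adjusted p = 1.51e-12), or 6.04-fold, and was at least 2.27 in each line.

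BAG3, which exchanges nucleotide on HSP70 and directs bound clients to autophagy, read between 7.43 and 7.89 with SA100 (median 7.59), against 5.07 to 5.51 without drug (median 5.23). All SA100 arrays were higher than all untreated ones. The difference was 2.35 (SE 0.153, limma adjusted p = 1.48e-09), or 5.11-fold. In single lines it ran between 2.09 and 2.79.

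HSPA6 encodes an HSP70 known as strictly stress-induced. It read between 3.87 and 4.64 with SA100 (median 4.18), against 1.57 to 2.43 without drug (median 2.22). The fitted difference was 2.16 (SE 0.171, limma adjusted p = 3.07e-08), but all except the 2 brightest untreated arrays were below the background level, so its size is not settled. With untreated values under 2.42 raised to it, the difference of means was 1.80, or 3.49-fold, with the spread between arrays left out of account. HSPA7, a near-identical copy of HSPA6, differed by 0.11 (SE 0.14), with means of 2.53 with SA100 and 2.35 without drug. Such copies can share signal, so the values of both are uncertain.

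HSPA1L, an HSP70 gene best known from testis and neighbour of HSPA1A and HSPA1B, read between 5.69 and 6.59 with SA100 (median 6.10), against 4.01 to 4.63 without drug (median 4.30). The groups did not overlap. The difference was 1.82 (SE 0.189, limma adjusted p = 2.16e-06). Its 5 probe sets gave differences of means between 1.64 and 1.81, and 3 of them held identical values. Whether these probe sets also detect HSPA1A or HSPA1B transcripts was not tested.

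DNAJB4, another class B J protein of the cytosol, read between 5.24 and 6.12 with SA100 (median 5.68), against 3.21 to 4.93 without drug (median 3.97). The groups did not overlap, although the untreated arrays were widely spread (SD 0.554, n = 9). The difference was 1.66 (SE 0.229, limma adjusted p = 0.000108). It ran between 1.02 in PAR and 2.55 in PKR.

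HSPH1, an HSP110 chaperone that exchanges nucleotide on HSP70, read between 9.88 and 10.04 with SA100 (median 9.97), against 8.92 to 9.35 without drug (median 9.00). The SA100 arrays were nearly alike (SD 0.0542, n = 6) and all above the untreated ones. The difference was 0.91 (SE 0.093, limma adjusted p = 1.79e-06), or 1.88-fold. HSPB1, a small heat shock protein that holds unfolded clients, read between 10.14 and 10.41 with SA100 (median 10.28), against 9.24 to 9.97 without drug (median 9.65). It was higher in each line, by 0.55 to 1.00, and the difference was 0.74 (SE 0.092, limma adjusted p = 2.58e-05).

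**Figure D2:**
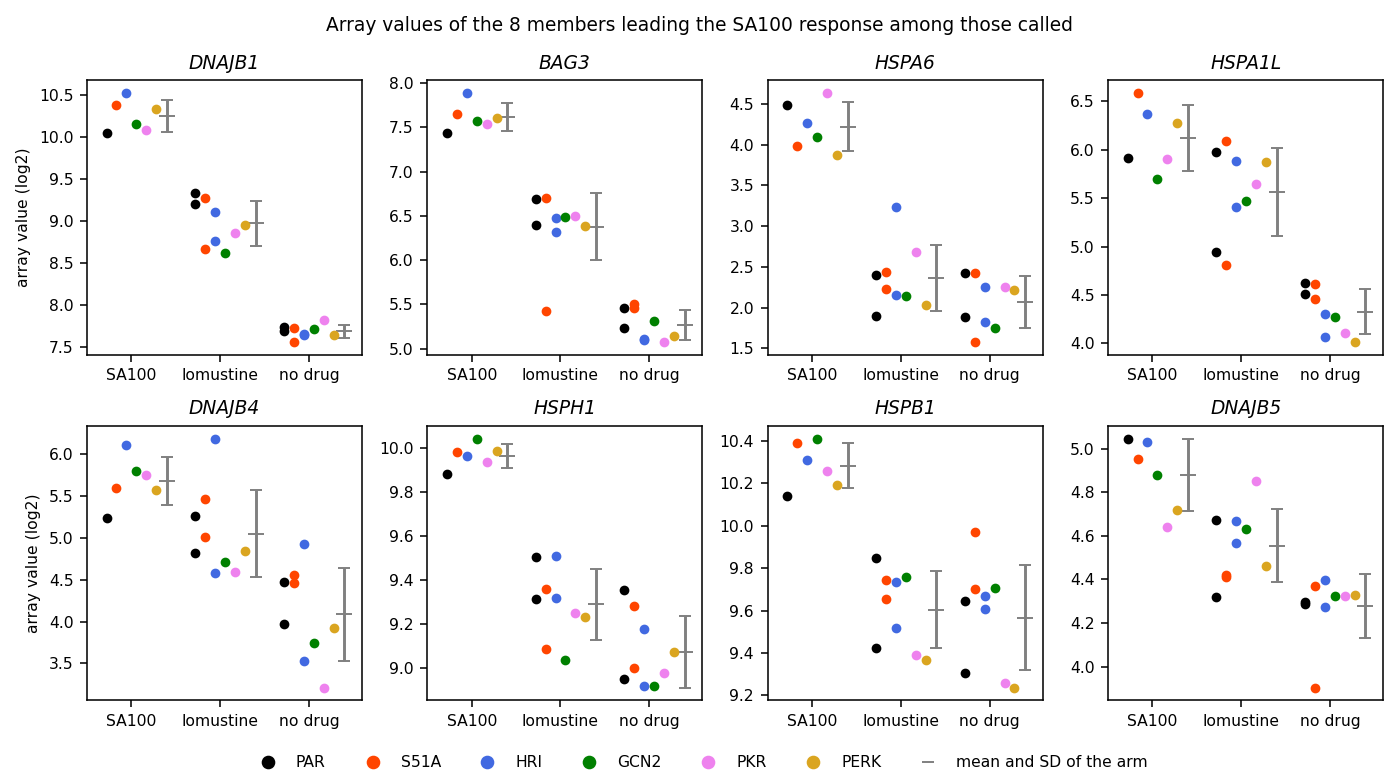
Array values (log2 units, vertical axes with their own ranges) of 8 called members under SA100, lomustine and no drug, coloured by line, with the mean and SD of each arm in grey. In all 8 panels the SA100 points lie above the untreated points. In DNAJB1 the 9 lomustine points fill the gap between the other arms, at 8.61 to 9.33, while in HSPA6 and HSPB1 they overlap the untreated points.

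The other called members changed by 0.60 or less. DNAJB5, a further class B J protein, read between 4.64 and 5.05 with SA100 (median 4.92), against 3.90 to 4.40 without drug (median 4.32), a difference of 0.60 (SE 0.0978, limma adjusted p = 0.000812). HSPA4L, an HSP110-like exchange factor that carries an HSPA symbol, read between 8.29 and 8.57 with SA100 (median 8.52), against 7.74 to 8.17 without drug (median 7.94). DNAJA1, a cytosolic class A J protein, read between 9.07 and 9.34 with SA100 (median 9.21), against 8.50 to 8.87 without drug (median 8.73). In all 3 genes the lowest SA100 array lay above the highest untreated one. HSPA4L differed by 0.52 (SE 0.118, adjusted p = 0.0171 in limma) and DNAJA1 by 0.50 (SE 0.0858, adjusted p = 0.00133 in limma). HSPA4L lost its call with arrays centred on their medians and without the HRI, GCN2, PKR or PERK line.

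BAG2, which restrains the ubiquitin ligase CHIP, read between 6.78 and 7.25 with SA100 (median 6.97), against 5.89 to 6.75 without drug (median 6.61). The groups nearly touched, and the difference was 0.49 (SE 0.131, limma adjusted p = 0.0432). HSPA2, an HSP70 with a known role in sperm formation, read between 2.51 and 2.90 with SA100 (median 2.74), against 2.13 to 2.52 without drug (median 2.22). Here the groups overlapped at their edges, and the difference of 0.44 (SE 0.115, adjusted p = 0.0361) lay close to background. With untreated values under 2.42 raised to it, the difference of means was 0.28, or 1.21-fold. That figure leaves the spread between arrays out of account. HSP90AB1, the constitutive cytosolic HSP90, read between 9.77 and 9.98 with SA100 (median 9.90), against 9.34 to 9.87 without drug (median 9.52), and differed by 0.36 (SE 0.0942, limma adjusted p = 0.0388). The calls of BAG2, HSPA2 and HSP90AB1 rest on few arrays. Each was lost with arrays centred on their medians and without the GCN2, PKR or PERK line. Leaving out PAR no drug B or HRI no drug A ended all of them, S51A no drug B ended HSPA2 and HSP90AB1, S51A no drug A ended HSPA2, and HRI no drug B ended BAG2 and HSP90AB1. The inducible HSP90AA1 missed the threshold, with a difference of 0.41 (SE 0.113, limma adjusted p = 0.0512), although it was higher in 6 of 6 lines. It passed in 7 of the 27 alternatives, among them the fit without S51A lomustine B (0.42, SE 0.0803, limma adjusted p = 0.00359).

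In the HSP70, small heat shock protein, J protein, BAG and CCT families, the member with the lowest difference did not pass the test. Among HSP70 genes, HSPA5, the chaperone of the endoplasmic reticulum also called BiP, was lowest, at -0.30 (SE 0.108, limma adjusted p = 0.143). It read 8.85 to 9.24 with SA100 and 9.21 to 9.59 without drug, and was lower in 6 of 6 lines. Among J proteins, DNAJA3 of mitochondria was at -0.05, DNAJB11 of the endoplasmic reticulum at 0.02 and DNAJC13, an endosomal protein, at -0.39. BAG5 was at -0.21 and HSPB6 at -0.16. The CCT subunits spanned -0.06 in CCT6B to 0.20 in CCT4, with a median of 0.11. CCT6B is expressed mainly in testis and read near background here (mean 2.35 with SA100 and 2.39 without drug). DNAJC15, a J protein of the inner mitochondrial membrane, had the largest difference in class C, at 0.70, but with an SE of 0.425.

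By compartment, none of the 9 tested members of the endoplasmic reticulum and none of the 6 of mitochondria was called with SA100. Their medians were 0.05 and 0.03. With 2.11% of all genes called higher, lists this short would often hold no call, so nothing is read from these counts. The 13 called members were among the 52 placed in neither list.

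Promoter sequences were set beside these results because heat shock elements are the known binding sites of HSF1. Such elements are inverted repeats of a short unit, and the letters GAANNTTC or TTCNNGAA mark 2 adjoining units. Both patterns read the same on either strand. In the 250 bases before the gene start (RefSeq, build GRCh38.p14), 5 of the 13 members called with SA100 held at least 1 match. Among tested members that were not called, 3 of the 46 with a sequence did (CCT6B, DNAJC15 and HSPB6). Over all 27305 genes in that set the share was 11.7%, so a match of these letters is common. Matches are capitalised in these windows of the called members, which run 5′ to 3′ on the gene's strand.
HSPA6: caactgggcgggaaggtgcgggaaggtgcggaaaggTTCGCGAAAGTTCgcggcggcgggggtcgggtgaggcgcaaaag
HSPA1L: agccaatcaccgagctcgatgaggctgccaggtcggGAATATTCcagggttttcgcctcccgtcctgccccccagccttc
HSPB1: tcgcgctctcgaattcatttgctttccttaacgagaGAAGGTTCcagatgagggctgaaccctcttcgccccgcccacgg
DNAJA1: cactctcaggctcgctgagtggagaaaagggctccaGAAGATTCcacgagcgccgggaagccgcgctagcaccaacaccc
BAG2: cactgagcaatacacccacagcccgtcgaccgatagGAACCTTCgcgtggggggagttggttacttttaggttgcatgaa

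The HSPA6 window lies at chr1:161524430-161524509 on the plus strand. Its match starts 74 bases before the gene start and joins 3 units, as both patterns overlap. Only 0.439% of all promoters held 3 joined units, and HSPA6 was the only one among the 13. A further 2-unit match of HSPA6 starts 180 bases before the gene start. The windows of the other genes lie at chr6:31815401-31815480 on the minus strand (HSPA1L, match 161 bases before the start), chr7:76302455-76302534 (HSPB1, 182 bases), chr9:33025039-33025118 (DNAJA1, 198 bases) and chr6:57172166-57172245 (BAG2, 124 bases), the last 3 on the plus strand. HSPA1L neighbours HSPA1A and HSPA1B, which have no value here. Whether the HSPA1L match lies in the promoter of either neighbour was not tested. DNAJB1, BAG3, DNAJB4 and HSPH1, which are among the most strongly changed members, had no match in these 250 bases. That says only that these letters are not in this window, and a match is a description, not a shown binding site.

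With lomustine, few members were called, and those called higher were among the leaders of the SA100 response. limma called 4 of 67 members higher than without drug and 0 lower, against 0.248% higher and 0.779% lower over all genes tested. At an unadjusted p under 0.05 there were 16, again without the share of all genes, so this count is not interpreted. The median difference was -0.03 over members and -0.04 over all genes. The SA100 and lomustine comparisons share their untreated arrays, so their likeness is not independent. DNAJB1 read between 8.61 and 9.33 with lomustine (median 8.95), above all untreated arrays, and differed by 1.29 (SE 0.101, limma adjusted p = 1.28e-07), or 2.45-fold. HSPA1L read between 4.81 and 6.09 (median 5.64), again above all untreated arrays, and differed by 1.24 (SE 0.168, limma adjusted p = 0.000282).

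BAG3 read between 5.43 and 6.71 with lomustine (median 6.48) and differed by 1.11 (SE 0.136, limma adjusted p = 6.72e-05). Of its 9 lomustine arrays, 8 lay above all untreated ones, and S51A lomustine B, at 5.43, lay within their range. DNAJB4 read between 4.58 and 6.19 (median 4.85), overlapping the untreated arrays, and differed by 0.97 (SE 0.203, limma adjusted p = 0.0215). All 4 were higher in 6 of 6 lines. The call of DNAJB4 was lost with the letter of the repetition as a replicate block (3 members called), with arrays centred on their medians, and without any one of the PAR, S51A, GCN2, PKR and PERK lines. HSPA6, at 1.90 to 3.24 with lomustine and a difference of 0.29 (SE 0.152, adjusted p = 0.396 in limma), did not pass. HSPH1 (0.22) and HSPB1 (0.04) did not either.

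The members of the endoplasmic reticulum had a median of -0.29 with lomustine, and none of the 9 was called. The lowest was DNAJC3, an inhibitor of eIF2-alpha kinases that acts as a J protein there, at -0.57 (SE 0.184, limma adjusted p = 0.154). HSPA5 differed by -0.34 (SE 0.0955, limma adjusted p = 0.0971), DNAJC10, a disulfide reductase, by -0.35, and DNAJB11, a J protein partner of HSPA5, by -0.31 (SE 0.0884, limma adjusted p = 0.0986). These last 3 were lower in 6 of 6 lines. Not all members of the list pointed down: DNAJB9, a stress-induced J protein of the endoplasmic reticulum, was at 0.23 (SE 0.11, limma adjusted p = 0.35) and higher in 6 of 6 lines, and DNAJB14 was at 0.01. Neither passed. HSPA5 read 8.59 to 9.45 with lomustine, against 9.21 to 9.59 without drug, so the groups overlapped. DNAJB11 passed without S51A lomustine A (-0.35, limma adjusted p = 0.0484). HSPA5 passed once S51A lomustine B and PAR lomustine A were both left out (-0.42, limma adjusted p = 0.03), a setting chosen after seeing the data.

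Set directly against lomustine, SA100 gave higher values of 13 members and lower values of 0, against 5.47% higher and 0.473% lower over all genes. The median difference was 0.18 over members and 0.08 over all genes. HSPA6 stood 1.87 higher with SA100 (SE 0.171, limma adjusted p = 5.12e-07), and its 6 SA100 arrays lay above all lomustine arrays. Its lomustine mean of 2.36 is below the background level, so the size of this difference is not settled either. DNAJB1 was 1.30 higher (SE 0.114, adjusted p = 2.84e-07), BAG3 1.24 (SE 0.153, adjusted p = 4.14e-05), HSPB1 0.70 (SE 0.092, adjusted p = 9.4e-05) and HSPH1 0.69 (SE 0.093, adjusted p = 0.000131). BAG2, HSPA4L, DNAJA1 and HSP90AB1 were called in both SA100 comparisons too, at 0.54, 0.48, 0.38 and 0.35. Each of these 4 lost its call here without the PKR line or without the PERK line.

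Another 4 members passed against lomustine but not against no drug. They were DNAJB12, a J protein of the endoplasmic reticulum membrane (0.48, SE 0.136), HSP90AA1 (0.40, SE 0.113), the mitochondrial DNAJC11 (0.34, SE 0.0948) and the chaperonin subunit CCT2 (0.26, SE 0.0758). DNAJB12 read 6.22 to 6.44 with SA100, 5.11 to 6.22 with lomustine and 5.78 to 6.36 without drug, so its lomustine arrays reached lowest. The call of DNAJB12 was lost without PAR lomustine A or HRI lomustine A, that of HSP90AA1 without PAR lomustine A, and that of DNAJC11 without PAR lomustine B or HRI lomustine A. CCT2 lost its call in 9 of the 12 fits that left out 1 array. Of all 27 alternatives, 10 ended the call of DNAJB12, 11 that of HSP90AA1, 12 that of DNAJC11 and 19 that of CCT2. All 4 calls were lost with arrays centred on their medians and without any one of the PAR, HRI, GCN2, PKR and PERK lines. HSPA1L (0.59, SE 0.189, limma adjusted p = 0.0699) and DNAJB4 (0.70, SE 0.229, limma adjusted p = 0.0743) did not pass in this comparison.

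In single lines, the members called with SA100 were higher than without drug in 6 of 6 lines, and the sizes varied. DNAJB1 responded to SA100 by 2.75 in S51A, 2.89 in HRI, 2.45 in GCN2, 2.27 in PKR and 2.70 in PERK, and by 2.34 in PAR. BAG3 responded by 2.17 in S51A, 2.79 in HRI, 2.25 in GCN2, 2.47 in PKR and 2.46 in PERK, and by 2.09 in PAR. BAG2 varied more, with 1.16 in PERK and 0.13 in PAR. The smallest SA100 response of HSPA1L and DNAJB4 was that of PAR too, at 1.35 and 1.02. Each of these rests on 1 SA100 array per line.

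**Figure D3:**
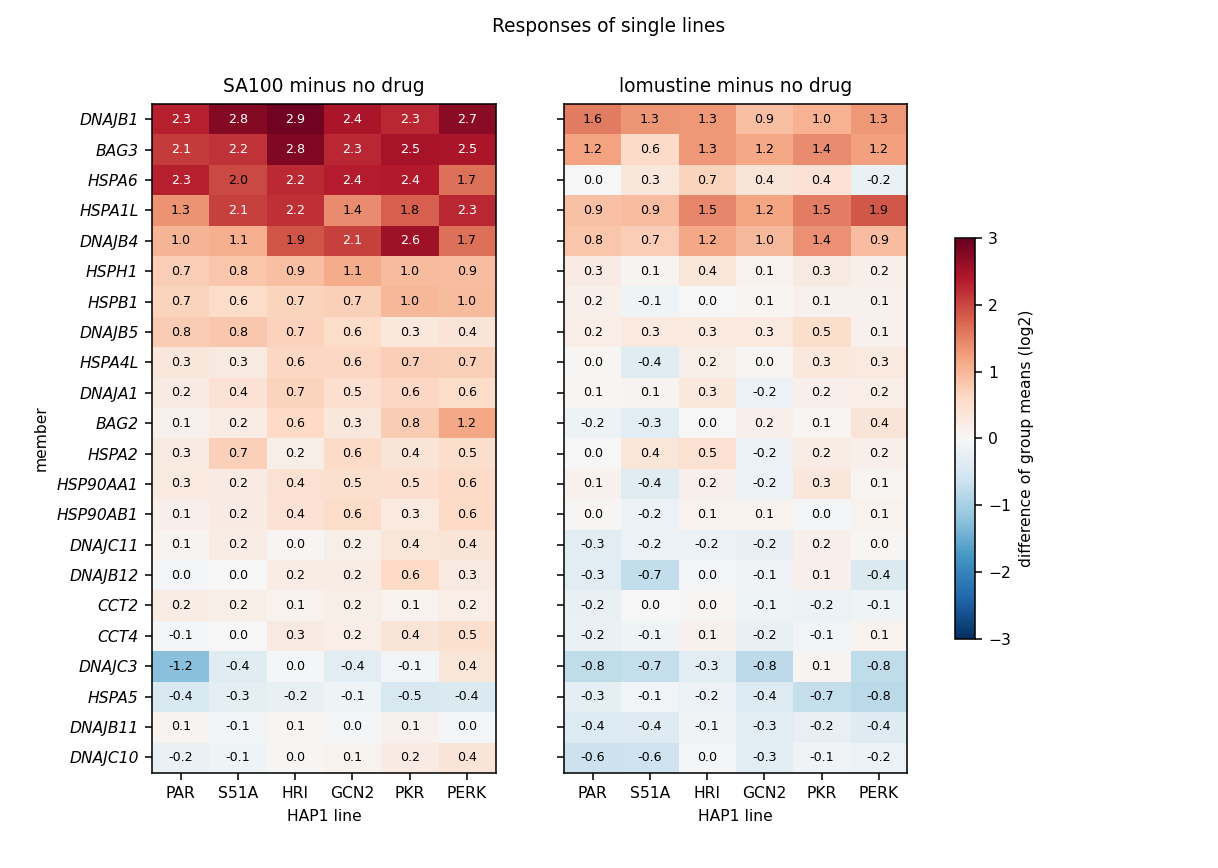
Difference of group means from no drug (log2 units, colour and printed value) in each HAP1 line, for SA100 on the left and lomustine on the right. The rows are the members called in an SA100 comparison, then CCT4 and 4 members of the endoplasmic reticulum. The rows from DNAJB1 to HSP90AB1 are above 0 in all 6 lines with SA100, and HSPA5 is below 0 in all 6 with both drugs.

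Whether the lines without eIF2-alpha phosphorylation at that site, or without HRI, differed in their response was asked by setting S51A and HRI each against the mean response of PAR, GCN2, PKR and PERK. For SA100 and for lomustine, limma called 0 members and 0% of all genes in each of these 4 comparisons. At an unadjusted p under 0.05, 1 member differed in the SA100 response of S51A (HSPA7, 0.82, unadjusted p = 0.0174) and 0 in the other comparisons. The intervals were wide. With SA100, the response of S51A minus that of the other lines was 0.31 for DNAJB1 (95% interval -0.45 to 1.07), -0.14 for BAG3 (-1.21 to 0.93) and 0.35 for HSPA1L (-0.96 to 1.65). The response of HRI minus that of the other lines was 0.45 for DNAJB1 (-0.31 to 1.21) and 0.47 for BAG3 (-0.60 to 1.54).

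With lomustine, the response of BAG3 in S51A was lower than that of the other lines by a difference of -0.67 (95% interval -1.59 to 0.24). That value rests on S51A lomustine B, in which BAG3 read 5.43 while array A read 6.71. Without array B the difference was -0.03 (-0.65 to 0.58). HSPA1L gave -0.45 (-1.57 to 0.66) with array B and 0.19 (-0.80 to 1.17) without it. The lomustine response of HRI minus that of the other lines was 0.09 for DNAJB1 (-0.56 to 0.74) and 0.04 for BAG3 (-0.88 to 0.95). Each of these intervals includes differences of 0.5 or more in at least one direction, so equal responses are not shown.

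Over all arms, few members were called between a line and PAR, and only a small share of all genes was. limma called 0 members in S51A, where 2.18% of all genes were called, 0 in HRI (0.144% of genes), 0 in GCN2 (0.0692%) and 0 in PKR (0%). In PERK it called 1 of 67, against 0.179% of genes. At such shares, 67 genes would hold few or no calls, so nothing is read from these counts. At an unadjusted p under 0.05 there were 5 members in S51A, 4 in HRI, 2 in GCN2, 2 in PKR and 3 in PERK. The share of all genes at that threshold is not given here, so nothing is read from these either. The called member was DNAJC5, the J protein of synaptic vesicles known as cysteine string protein. It read 5.37 with SA100, 4.59 with lomustine and 4.88 without drug in PERK, against 5.84 with SA100, 5.41 and 5.78 with lomustine and 5.89 and 5.92 without drug in PAR. PERK was lower in each arm, and the difference was -0.85 (SE 0.158, limma adjusted p = 0.0249). The call was lost without PAR lomustine B, without PAR no drug A or B, and without the HRI line. DNAJC5 in PKR was also below PAR, by a difference of -0.40 that did not pass.

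Among the members not called, DNAJC22 came close to the threshold in S51A, while DNAJC6 did not in GCN2 or HRI. DNAJC22, a J protein spanning the membrane, averaged 3.83 in S51A (SD 0.523, n = 5) and 3.17 in PAR (SD 0.176, n = 5). The difference was 0.66 (SE 0.18, limma adjusted p = 0.059). Without S51A lomustine B it passed, at 0.82 (limma adjusted p = 0.00416), and without S51A no drug A, at 0.77 (limma adjusted p = 0.0312). DNAJC6, the auxilin that strips clathrin coats, averaged 4.57 in GCN2 (SD 0.0525, n = 3) and 4.73 in HRI (SD 0.16, n = 5), against 5.14 in PAR (SD 0.328, n = 5). Its differences from PAR were -0.58 in GCN2 (limma adjusted p = 0.677) and -0.41 in HRI (limma adjusted p = 0.415).

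**Figure D4:**
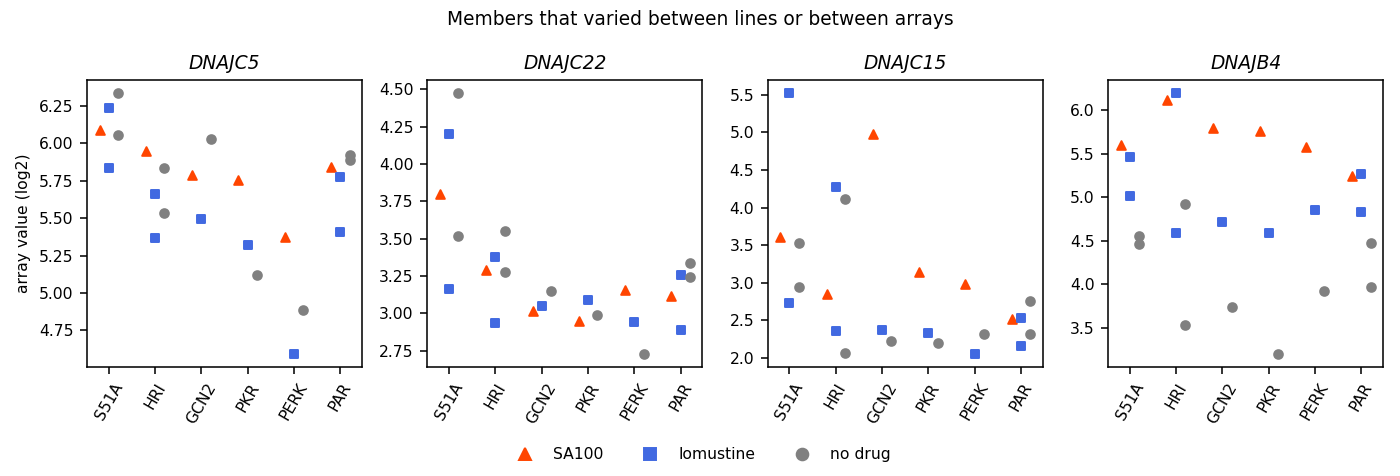
Array values (log2 units, vertical axes with their own ranges) of 4 members in the 5 altered lines and PAR, with a marker for each arm. DNAJC5 is lowest in PERK, DNAJC22 reaches 4.47 in S51A, and DNAJC15 and DNAJB4 differ widely between arrays of the same line and arm.

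DNAJC15 had the widest range of all members over the 24 arrays, 2.06 to 5.52. It read 4.98 in GCN2 with SA100, and 2.51 to 3.61 in the other lines with SA100. With lomustine it read 5.52 in S51A B and 2.73 in S51A A, and 4.28 in HRI B and 2.36 in HRI A. Without drug it read 4.11 in HRI A and 2.06 in HRI B. So high and low arrays occurred within single groups, and the gap between A and B reached 2.79. DNAJB4 had a gap of up to 1.61, with lomustine values of 6.19 in HRI B and 4.58 in HRI A, and untreated values of 4.93 in HRI A and 3.54 in HRI B. In HRI the same arrays were thus high in both genes.

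Partners of the chaperones outside these families were read from lists grouped by function. The lists were chosen with earlier results of these data known, so their calls are a description and not independent support. Of 15 HSP90 co-chaperones listed, 10 had a probe set with 1 symbol and were tested. Among them, 3 were called higher with SA100 and 0 with lomustine, with a median of 0.29 for SA100. Over all genes tested, 2.11% were called higher with SA100 and 0.248% with lomustine. CHORDC1, a zinc-binding HSP90 partner, rose by 1.48 (SE 0.222, limma adjusted p = 3e-04), FKBP4, an immunophilin of steroid receptor complexes, by 0.47 (SE 0.0789, adjusted p = 0.00107), and STIP1, which links HSP70 to HSP90, by 0.34 (SE 0.084, adjusted p = 0.03). Among 8 other chaperones tested, 1 rose, the collagen chaperone SERPINH1, by 1.43 (SE 0.15, limma adjusted p = 2.2e-06). None of 10 HSP70 partners, 8 prefoldin subunits and CCT partners, and 4 tested genes from a list of 5 HSF factors was called with either drug. Lists this short would often hold no call at these shares, so nothing is read from the lists without one. HSF1 differed by -0.07 with SA100 and by -0.16 with lomustine.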

How the data were processed

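Per the submitters' processing notes, the authors deposited log2 values made with RMA and the R package affy, without versions or a genome build given in the sources used here. Of 53617 probe sets, 23558 had 1 symbol and were kept, the probe set with the highest mean standing for each gene. Genes with at least 2 of 24 arrays at or above 2.42 were tested.

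limma 3.58.1 in R 4.3.3 fitted arm and line over all arrays (16 residual degrees of freedom), and 18 group means for comparisons of responses (6 residual degrees of freedom, with the groups of 1 array assumed to vary like the duplicated ones). Tests were two-sided, with Benjamini-Hochberg adjustment over 17338 genes at 0.05. The fit was tested on simulated data for SA100 against no drug. It recovered 43 of 100 genes changed by 0.5 and 97 of 100 changed by 1, with 9 false calls. The letters A and B were not used to pair arrays.

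Named members were those called with the largest changes and each family's highest and lowest with SA100. Some others, such as those near the threshold or with wide spread, were chosen after their values were seen. The members and lists were chosen with earlier results of these data known. Alternatives were other filters, probe set means, renewed normalization, centring, another prior, fewer arrays, the mean of contrasts within lines, the letter as a replicate block, and fits without single lines or single duplicated arrays.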

Additional observations from a re-analysis of the deposited data

Results flagged for a closer look

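Values far from the rest of their arm were looked for in 201 sets of arrays (67 members in 3 arms), and 10 stood out, 4.98% of the sets. Chance alone marks about 1 set in 20. With SA100, the PAR array was highest in DNAJC17 (3.66, next 3.37) and lowest in DNAJC21 (6.06, next 6.55). With lomustine, S51A B was lowest in BAG3 (5.43, next 6.32), in HSPA4L (7.28, next 7.86) and in HSPA13 (6.15, next 6.82), and S51A A was highest in DNAJC22 (4.20, next 3.38). PAR B was highest in CCT6B with lomustine (2.96, next 2.47). Without drug, S51A B was highest in DNAJC22 (4.47, next 3.55) and lowest in DNAJB5 (3.90, next 4.27), and PERK was highest in CCT6B (2.96, next 2.55).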

How the results depend on the processing

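Of the members called with SA100, 7 of 13 kept their call in each of 27 alternatives (DNAJB1, BAG3, HSPA6, HSPA1L, DNAJB4, HSPH1 and HSPB1). With lomustine 2 of 4 did so (DNAJB1 and BAG3), and in SA100 against lomustine 5 of 13 (those 2 with HSPA6, HSPB1 and HSPH1). No called member changed sign. Against no drug, 7 members were called with SA100 and 2 with lomustine by the mean of contrasts within lines. In SA100 against lomustine, 5 were called by that mean, 5 with only the arrays of the compared arms, 6 with arrays centred on their medians, and 6 without the GCN2 line, 7 without HRI, 5 without PERK and 6 without PKR. Leaving out 1 array gave 10 to 15 with SA100, 4 to 5 with lomustine and 10 to 17 in SA100 against lomustine. DNAJC5 in PERK gave counts of 0 to 1 leaving out 1 array, 0 with centring and 0 without the HRI line. In S51A against PAR the count was 0 to 1 leaving out 1 array. Without PAR lomustine A and S51A lomustine B, chosen after seeing the data, it was 1 in S51A (DNAJC22), 1 in HRI and 1 in GCN2 (DNAJC6, lower in both). The replicate block gave 3 members with lomustine and 0 in both lomustine responses of S51A and HRI. Over genes, the A minus B differences with lomustine and without drug correlated at 0.334 in PAR, -0.388 in S51A and -0.561 in HRI, so the letters do not pair the arrays. The causes were not tested. Signals near background limit HSPA6, HSPA2, HSPA7 and CCT6B.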
